A study of Homo sapiens with 8 samples.

Results

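The response of SW620 cells to caffeine was read from 4 poly-A RNA-seq libraries, 2 of caffeine-treated cells and 2 of control cells, out of 8 libraries in the series. They were chosen by the cell line and the treatment in the labels, and no measured value entered that choice. SW620 is an established human line grown from a lymph node metastasis of a colorectal adenocarcinoma, and SW480, the line of the other 4 libraries, came from the primary tumour of the same patient. Both lines, treated or not, made a fluorescent immunoproteasome in which the catalytic subunit PSMB8 (B8) is fused to mCherry, so the control cells carried this fusion too. Whether a line with the fusion was 1 clone or a pool is not given in the sources used here. For SW620 the labels describe short exposures to several doses of caffeine and a long one to a single dose, and they do not say which exposure the sequenced cells had. They call the replicates biological without saying whether these were separate cultures. The p-values below thus measure a spread between replicate libraries, pooled over all 8 libraries of both lines, which may be technical.

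Caffeine is a methylxanthine that blocks adenosine receptors. At higher concentrations it also inhibits the phosphodiesterases that break down cyclic AMP, opens ryanodine receptor calcium channels and inhibits the checkpoint kinases ATM and ATR. The title of the series names the immunoproteasome, the form of the proteasome whose catalytic subunits PSMB8, PSMB9 and PSMB10 are induced by interferon and make peptides for MHC class I, and its question is how caffeine acts on that complex in colorectal adenocarcinoma cells. Several of the gene groups below belong to programmes known from other settings. Hypoxia-inducible factors, which prolyl hydroxylases mark for destruction when oxygen is present, switch on glucose uptake and glycolysis. ACGTG is a form of the core DNA motif that they bind. Wnt signalling keeps intestinal stem cells and colorectal tumour cells undifferentiated.

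The SW620 libraries held 16824768 to 19942730 reads assigned to genes, so that 3 reads, the most a library with none could hide, came to 0.150 to 0.178 CPM (counts scaled to the library's total). The first principal component of the 4 libraries, with 66.2% of the variance, separated caffeine from control. The second, with 20% of it, separated the caffeine replicates, with scores of 26.3 and -26.1, while both controls lay between them at 0.868 and -1.06. The ratio of caffeine replicate 2 to replicate 1 rose with exon length across 12466 genes (Spearman rho 0.443, genes not being independent replicates), and the ratio of the control replicates did not (rho -0.0458). Against the control mean, rho was -0.0329 for caffeine replicate 1 and 0.230 for caffeine replicate 2. Between exon length and the log2 fold change of caffeine over control it was 0.112. The part of length in the responses below was not tested. The log2 ratio of the replicates had a standard deviation of 0.226 for caffeine and 0.15 for control. Mitochondrial transcripts took 5.72% and 5.21% of assigned reads in the controls and 4.38% and 4.61% with caffeine. Of 12 colon epithelial markers, 8 reached 1 CPM in every SW620 library, among them EPCAM, CDH1, VIL1 and CDX2, while CDX1 was at 0. The summed level of that list was 10714 to 10779 CPM in the controls and 12942 to 14349 CPM with caffeine. Its members did not move together, as 3 of 11 tested rose and 2, CDX2 and CDH17, fell by the test given below. Among 11 leukocyte markers 5 were at 0, PTPRC, CD3E and MS4A1 with them, and the list summed to 2.21 to 2.78 CPM in the controls and 2.16 to 2.50 CPM with caffeine.

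Between caffeine and control, 2537 of 17671 genes tested in SW620 differed (14.4% of them, edgeR's quasi-likelihood F test on all 8 libraries, Benjamini-Hochberg adjusted p under 0.05, here "called"). Of these, 1432 rose (8.1% of genes tested) and 1105 fell (6.25%). The counts of each list below are to be read beside these shares. The lists were chosen with earlier results of these data known, so their counts are descriptions. Of the called genes, 725 moved by more than 1 on the log2 scale and 451 by less than 0.5. Genes that rose held 82222 CPM of the library in the controls and 134927 CPM with caffeine on the mean, and genes that fell held 56919 and 38379 CPM. Protein-coding genes were called in 15.8% of 13645, long noncoding RNAs in 10.6% of 2567 and pseudogenes in 5.24% of 611. Among the long noncoding RNAs 108 rose and 164 fell, and among the protein-coding genes 1280 rose and 882 fell. All 2537 called genes had control and caffeine libraries that did not overlap, which was also true of 10963 of all genes tested. The number of calls was 1416 without caffeine replicate 1, 1183 without caffeine replicate 2, 882 without control replicate 1 and 801 without control replicate 2, and 4617 when the SW620 libraries were fitted alone. Below, most genes described singly are named with the libraries whose removal lost their call, and the others are covered by their list's counts. A call that held under every alternative did so under each of the 13 alternative analyses that gave the gene a value, and a log2 fold change given in parentheses with a p-value has its standard error beside it.

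**Figure D1:**
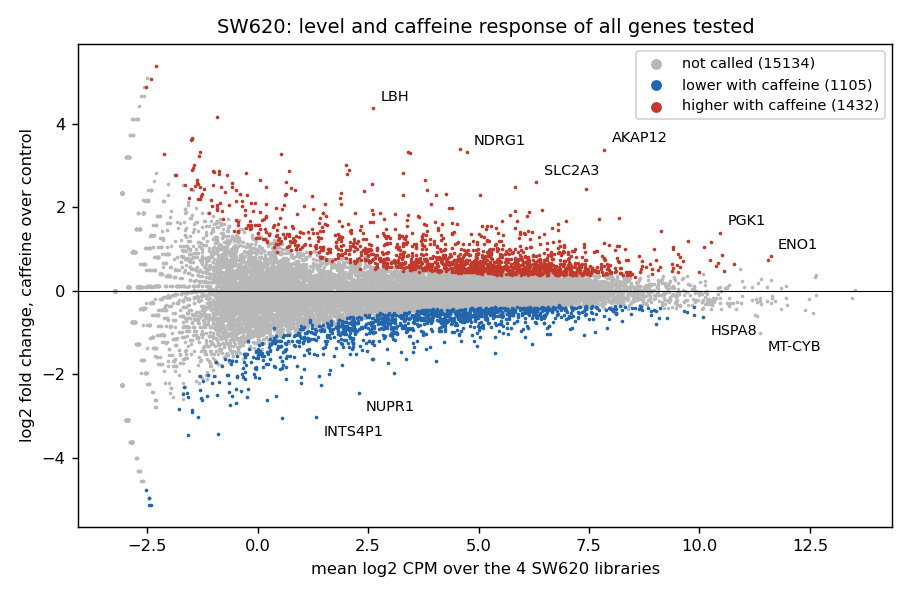
Each point is a gene tested in SW620, with its mean log2 CPM over the 4 libraries on the x axis and its log2 fold change (caffeine over control) on the y axis. The 1432 genes called higher are red, the 1105 called lower are blue and the 15134 others are grey; the glycolytic genes PGK1 and ENO1 stand out as rises among abundant transcripts.

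Promoter sequences of 4 glycolysis and hypoxia genes that rose are shown here as examples that hold ACGTG. It is a form of the core motif of hypoxia-inducible factors, and other forms were not searched. They are the RefSeq promoters (250 bases before the start site to 50 after it, GRCh38.p14, 5′ to 3′ on the gene's strand) of PGK1 (phosphoglycerate kinase, chrX:78103998-78104297, plus strand), LDHA (lactate dehydrogenase, chr11:18394313-18394612, plus strand), CA9 (carbonic anhydrase, chr9:35673678-35673977, plus strand) and P4HA1 (collagen prolyl hydroxylase, chr10:73096817-73097116, minus strand). Capitals mark ACGTG on either strand, so that CACGTG counts as 2 overlapping matches.
PGK1: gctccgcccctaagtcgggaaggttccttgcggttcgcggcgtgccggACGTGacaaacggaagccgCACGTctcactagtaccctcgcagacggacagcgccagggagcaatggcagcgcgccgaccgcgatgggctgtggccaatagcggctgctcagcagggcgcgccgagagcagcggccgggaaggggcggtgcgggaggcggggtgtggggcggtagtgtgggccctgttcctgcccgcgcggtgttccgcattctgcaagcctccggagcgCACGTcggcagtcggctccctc
LDHA: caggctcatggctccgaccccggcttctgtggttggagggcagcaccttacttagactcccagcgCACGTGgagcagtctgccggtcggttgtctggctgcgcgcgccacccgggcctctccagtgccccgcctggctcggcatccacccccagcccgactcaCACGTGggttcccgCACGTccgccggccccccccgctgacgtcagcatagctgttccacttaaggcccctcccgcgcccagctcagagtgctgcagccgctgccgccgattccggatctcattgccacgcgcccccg
CA9: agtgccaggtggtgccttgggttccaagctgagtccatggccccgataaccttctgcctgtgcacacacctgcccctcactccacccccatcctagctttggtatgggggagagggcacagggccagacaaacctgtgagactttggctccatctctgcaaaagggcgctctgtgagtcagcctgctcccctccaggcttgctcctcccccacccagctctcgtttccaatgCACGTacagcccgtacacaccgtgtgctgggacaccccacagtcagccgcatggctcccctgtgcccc
P4HA1: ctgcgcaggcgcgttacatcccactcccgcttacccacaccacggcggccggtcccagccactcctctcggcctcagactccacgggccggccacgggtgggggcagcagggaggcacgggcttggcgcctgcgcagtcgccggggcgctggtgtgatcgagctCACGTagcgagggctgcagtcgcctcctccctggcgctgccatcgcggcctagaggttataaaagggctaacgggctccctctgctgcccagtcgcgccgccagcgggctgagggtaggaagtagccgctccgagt
PGK1 held 3 matches, LDHA 5, and CA9 and P4HA1 1 each. The motif lay in 9 of 21 promoters of glycolysis genes that rose (42.9%), in 7 of 14 of hypoxia genes that rose (50%) and in 9 of 22 of mitosis genes that rose (40.9%). The share was 21.4% of all 35116 promoters, 26.2% of 12073 promoters of genes tested, 27.3% of 1092 of all genes called higher and 24.3% of 748 of those called lower. In the glycolysis list as tested, called or not, it was 39.1% of 23, and in the hypoxia list 48% of 25. These are shares of letters in a short window, not of sites bound.

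Among genes averaging 1 or more in log2 CPM, the largest rise was that of LBH, a transcription cofactor of limb and heart development, which stood at 1.32 and 1.25 CPM in the controls and 24.3 and 29.4 CPM with caffeine (log2 fold change 4.38 ± 0.19, adjusted p = 4.11e-10). EMP1, a tetraspan membrane protein of epithelia, stood at 6.93 and 7.62 CPM in the controls and 84.5 and 68.4 CPM with caffeine (log2 fold change 3.39 ± 0.19, adjusted p = 1.2e-08). AKAP12, a scaffold that holds protein kinase A and other kinases at the membrane, was the most abundant of the large risers at 71.9 and 71.6 CPM in the controls and 737 and 754 CPM with caffeine (log2 fold change 3.38 ± 0.15, adjusted p = 4.11e-10). It was 10.4 times higher with caffeine. NDRG1, a stress and hypoxia gene, followed at 8.91 and 7.82 CPM in the controls and 83 and 84.6 CPM with caffeine (log2 fold change 3.32 ± 0.16, adjusted p = 1.15e-09). In each of these genes both caffeine libraries lay far above both controls. LBH lies at chr2:30231369-30323730, plus strand, EMP1 at chr12:13196716-13219939, plus strand and AKAP12 at chr6:151239999-151358557, plus strand (GENCODE 29, GRCh38), and none of them shares exon bases with another gene there.

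EREG, which encodes the EGF receptor ligand epiregulin, was next among protein-coding genes outside the histones, with 2.73 and 4.16 CPM in the controls and 34.2 and 33.5 CPM with caffeine (log2 fold change 3.29 ± 0.2, adjusted p = 7.4e-08). The receptor-type tyrosine phosphatase PTPRH stood at 1.87 and 1.1 CPM in the controls and 11.6 and 10.7 CPM with caffeine (log2 fold change 2.9 ± 0.24, adjusted p = 6.17e-07). The liprin PPFIA4, a synaptic scaffold gene, stood at 6.12 and 4.91 CPM in the controls and 35.8 and 32.9 CPM with caffeine (log2 fold change 2.64 ± 0.2, adjusted p = 3.89e-07). SLC2A3, the high-affinity glucose transporter GLUT3, stood at 35.3 and 29.2 CPM in the controls and 211 and 181 CPM with caffeine (log2 fold change 2.6 ± 0.14, adjusted p = 5.4e-09). RAET1L, a stress-induced ligand of the natural killer cell receptor NKG2D, stood at 2.68 and 2.15 CPM in the controls and 13.7 and 14.7 CPM with caffeine (log2 fold change 2.55 ± 0.2, adjusted p = 4.93e-07). CAV1, the main coat protein of caveolae, stood at 23.6 and 24.4 CPM in the controls and 141 and 127 CPM with caffeine (log2 fold change 2.48 ± 0.13, adjusted p = 5.4e-09). The long noncoding RNA MIAT rose from 4.4 and 2.91 CPM to 24.4 and 26.7 CPM (log2 fold change 2.81 ± 0.21, adjusted p = 2.89e-07). The rest of the 15 largest rises were 3 histone genes, H2BC11, H2BC4 and H1-2, and ENSG00000272468, a long noncoding RNA among the histone genes of chromosome 6 (chr6:27122657-27123221, minus strand, log2 fold change 2.79 ± 0.24, adjusted p = 1.43e-06).

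Under the same limit on level, the largest falls were smaller in size than the largest rises. The first was that of INTS4P1, a pseudogene of the Integrator subunit INTS4, at 7.34 and 6.11 CPM in the controls and 0.774 and 0.856 CPM with caffeine (log2 fold change -3.03 ± 0.3, adjusted p = 7.86e-06), a value that is uncertain because reads of a near-identical copy can be split by the counting. NUPR1, a stress-induced chromatin protein, followed at 11 and 11.2 CPM in the controls and 2.08 and 1.96 CPM with caffeine (log2 fold change -2.45 ± 0.23, adjusted p = 3.41e-06), which is 5.48 times lower with caffeine. GPX8, a glutathione peroxidase of the endoplasmic reticulum, stood at 4.71 and 5.41 CPM in the controls and 1.07 and 1.36 CPM with caffeine (log2 fold change -2.04 ± 0.24, adjusted p = 2.48e-05). AVPR2, a vasopressin receptor that signals through cyclic AMP, stood at 5.92 and 5.76 CPM in the controls and 1.43 and 1.51 CPM with caffeine (log2 fold change -1.98 ± 0.28, adjusted p = 0.0002). GCNT3, which branches mucin glycans, stood at 17.1 and 16.4 CPM in the controls and 3.63 and 4.83 CPM with caffeine (log2 fold change -1.97 ± 0.19, adjusted p = 4.83e-06). Each of these had 2 control libraries close to each other and 2 clearly lower caffeine libraries.

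SMOC1, a secreted calcium-binding matrix protein, fell from 14.3 and 13.8 CPM to 3.51 and 4.93 CPM (log2 fold change -1.72 ± 0.21, adjusted p = 8.07e-05). COL27A1, a fibrillar collagen gene, fell from 30.8 and 27.4 CPM to 9.11 and 9.06 CPM (log2 fold change -1.68 ± 0.16, adjusted p = 3.92e-06). APOE, the lipid carrier apolipoprotein E, went from 9.67 and 11.2 CPM to 3.93 and 2.87 CPM (log2 fold change -1.63 ± 0.21, adjusted p = 8.82e-05). MGAM2, a maltase-glucoamylase gene, fell from 16.7 and 19.1 CPM to 5.06 and 6.54 CPM (log2 fold change -1.62 ± 0.23, adjusted p = 0.000194). The other 6 of the 15 largest falls were SCML4 (-1.9 log2), TRIM54 (-1.88), ZC3H12B (-1.63), COPG2IT1 (-1.56), LINC01594 (-2.26) and ENSG00000283235 (-1.77), the last of which shares 33.4% of its exon bases with AC139491.2 on the same strand. None of the 30 genes with the largest rises and falls lost its call under any of the 13 alternative analyses.

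**Figure D2:**
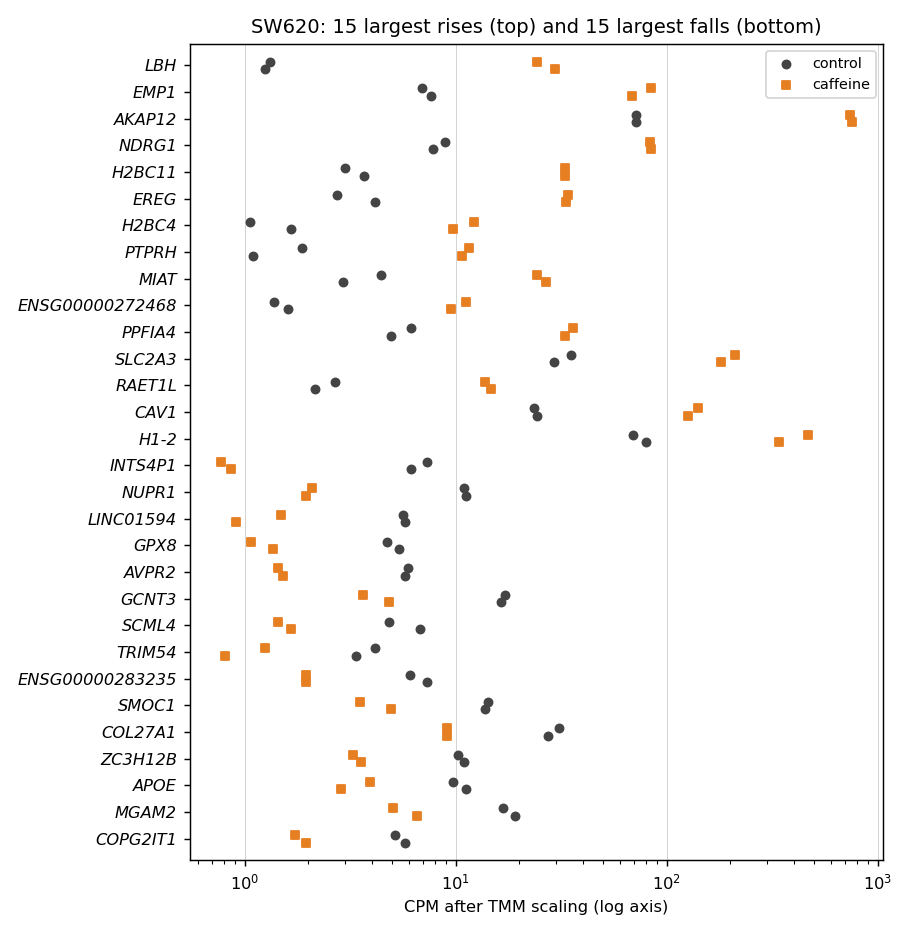
Level in each SW620 library (x axis, CPM after TMM scaling, log axis) of the 15 genes with the largest rises and the 15 with the largest falls (y axis), with dark circles for the 2 control and orange squares for the 2 caffeine libraries. By the rule that picked the 30 genes, their caffeine and control libraries do not overlap. AKAP12 reaches 737 and 754 CPM with caffeine.

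Measured in reads rather than in fold, glycolytic genes led the rises. The 10 genes that gained most CPM held 7 glycolysis genes (ENO1, GAPDH, PGK1, LDHA, TPI1, PKM and SLC2A1), the keratin KRT19, AKAP12 and the actin crosslinker FLNA. ENO1, an enolase, went from 2398 and 2280.3 CPM to 4319.8 and 3987 CPM (log2 fold change 0.83 ± 0.14, adjusted p = 0.000851). FLNA went from 1106 and 1094 CPM to 1651 and 1834 CPM (log2 fold change 0.66 ± 0.14, adjusted p = 0.00365), a call that was lost without caffeine replicate 2, control replicate 1 or control replicate 2 (adjusted p = 0.0519 to 0.0691). Among the 10 genes that lost most CPM, HSPA8, the constitutive HSC70 chaperone, went from 1296 and 1414 CPM to 911 and 837 CPM (log2 fold change -0.63 ± 0.13, adjusted p = 0.00383) and lost its call without caffeine replicate 2 or control replicate 2 (adjusted p = 0.0687 to 0.0973). The argininosuccinate synthetase gene ASS1 fell from 765 and 759.8 CPM to 496 and 485 CPM (log2 fold change -0.64 ± 0.12, adjusted p = 0.00192). SFPQ, a nuclear RNA-binding protein, went from 672 and 682 CPM to 422 and 441 CPM (log2 fold change -0.65 ± 0.12, adjusted p = 0.00125). SLC7A5, NOTUM, ASPSCR1, LGALS3BP, PERP and SRSF2 were also among the 10, and each of these 6 lost its call under at least 1 alternative.

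Most of the listed genes of glycolysis and lactate handling rose. Of 25 genes tested, 22 rose and 0 fell, with a median log2 fold change of 0.92 (all genes tested, 8.1% higher, 6.25% lower, median -0.01), and 16 calls held under every alternative. The glucose transporter SLC2A1 stood at 604 and 536 CPM in the controls and 1335 and 1259 CPM with caffeine (log2 fold change 1.19 ± 0.12, adjusted p = 1.04e-05), beside SLC2A3 above. Hexokinases phosphorylate the glucose that enters, and HK1 stood at 42.6 and 40.1 CPM in the controls and 111 and 102 CPM with caffeine (log2 fold change 1.37 ± 0.13, adjusted p = 2.6e-06). HK2 stood at 97.8 and 92 CPM in the controls and 173 and 187 CPM with caffeine (log2 fold change 0.92 ± 0.12, adjusted p = 6.2e-05). GPI, the next enzyme, stood at 364 and 341 CPM in the controls and 736 and 686 CPM with caffeine (log2 fold change 1.01 ± 0.12, adjusted p = 3.82e-05).

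Lower in the pathway PGK1 stood at 872 and 884 CPM in the controls and 2381 and 2223 CPM with caffeine (log2 fold change 1.39 ± 0.13, adjusted p = 2.06e-06). TPI1, triose phosphate isomerase, stood at 1089.7 and 1059 CPM in the controls and 2073 and 1818 CPM with caffeine (log2 fold change 0.86 ± 0.16, adjusted p = 0.00146). The neuronal-type enolase ENO2 stood at 31.2 and 27.3 CPM in the controls and 118 and 100.1 CPM with caffeine (log2 fold change 1.9 ± 0.14, adjusted p = 1.87e-07). LDHA, which makes lactate from pyruvate, stood at 810.0 and 829 CPM in the controls and 1946 and 1709 CPM with caffeine (log2 fold change 1.16 ± 0.13, adjusted p = 2.58e-05). The aldolase gene ALDOC stood at 10 and 10.4 CPM in the controls and 31.3 and 31.3 CPM with caffeine (log2 fold change 1.61 ± 0.17, adjusted p = 1.05e-05). ALDOA stood at 3.04 and 3.86 CPM in the controls and 8.87 and 12.7 CPM with caffeine (log2 fold change 1.65 ± 0.25, adjusted p = 0.000358), a value that is uncertain because 42.3% of its exon bases are shared on the same strand with AC093512.2. In all of these steps each caffeine library lay above both controls.

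The 4 genes listed as regulators of the flux rose as well. PFKFB4, which makes the activator of phosphofructokinase, stood at 29.6 and 22.3 CPM in the controls and 84.5 and 79.2 CPM with caffeine (log2 fold change 1.66 ± 0.15, adjusted p = 1.59e-06). PDK1 and PDK3, kinases that keep pyruvate out of the mitochondria, rose by 1.05 and 0.99 log2. SLC16A3, which exports lactate, rose by 0.64 and lost its call without control replicate 2 (adjusted p = 0.0693), and GAPDH by 0.74 and lost its call without control replicate 1 (adjusted p = 0.0555). PGAM1 (0.62), PKM (0.64) and PFKL (0.52) lost theirs without caffeine replicate 1, control replicate 1 or control replicate 2 (adjusted p = 0.0543 to 0.0628), without control replicate 1 or control replicate 2 (adjusted p = 0.0736 to 0.088) and without any 1 of the 4 SW620 libraries (adjusted p = 0.0585 to 0.151), in that order. The 3 genes of the list that were not called had negative values, the lactate dehydrogenase subunit LDHB at -0.39 log2, the muscle-type phosphofructokinase PFKM at -0.36 and the lactate transporter SLC16A1 at -0.33. All 3 were called lower without either SW480 control library and with the SW620 libraries alone, and PFKM also without either SW480 caffeine library.

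**Figure D3:**
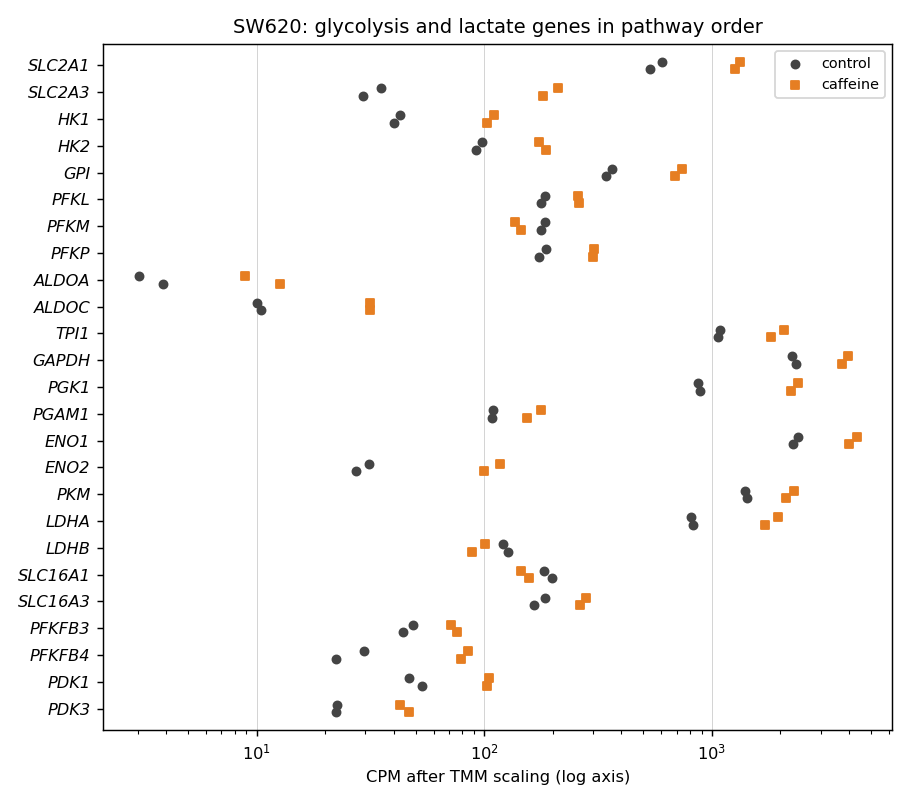
Level in each SW620 library (x axis, CPM after TMM scaling, log axis) of the 25 glycolysis and lactate genes tested, from glucose transporters at the top through the enzymes to lactate transporters and regulators of the flux (y axis). Orange squares (2 caffeine libraries) lie to the right of dark circles (2 controls) in all genes but PFKM, LDHB and SLC16A1.

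Genes of the wider hypoxia list rose more often than they fell. Of 30 genes tested, 17 rose and 2 fell (median 0.66), and 11 rises and 1 fall held under every alternative. The count of rises was 11 without control replicate 2. EGLN3, an oxygen-sensing prolyl hydroxylase that is itself induced by hypoxia, stood at 14.8 and 14.6 CPM in the controls and 79.4 and 65.6 CPM with caffeine (log2 fold change 2.3 ± 0.15, adjusted p = 4.12e-08). The mitophagy receptor BNIP3L stood at 39.3 and 34.4 CPM in the controls and 143 and 131 CPM with caffeine (log2 fold change 1.89 ± 0.14, adjusted p = 2.79e-07). P4HA1 stood at 76.2 and 67.1 CPM in the controls and 233 and 220.5 CPM with caffeine (log2 fold change 1.66 ± 0.12, adjusted p = 2.65e-07). Its relative P4HA2 stood at 10.9 and 9.42 CPM in the controls and 27.4 and 28.7 CPM with caffeine (log2 fold change 1.46 ± 0.15, adjusted p = 1.05e-05). The histone demethylase KDM3A stood at 47.9 and 46.2 CPM in the controls and 110.2 and 110.2 CPM with caffeine (log2 fold change 1.23 ± 0.12, adjusted p = 7.25e-06).

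CA9, a cell-surface carbonic anhydrase used as a hypoxia marker, stood at 165 and 142 CPM in the controls and 357 and 322 CPM with caffeine (log2 fold change 1.15 ± 0.14, adjusted p = 3.7e-05). CA12, another one, went the other way, from 2.63 and 3.06 CPM to 0.476 and 0.503 CPM (log2 fold change -2.52 ± 0.36, adjusted p = 0.000207). The factor itself, HIF1A, was not called at 174 and 187 CPM in the controls and 178 and 207 CPM with caffeine (log2 fold change 0.09 ± 0.13, adjusted p = 0.698). VEGFA, the angiogenic ligand, was not called either, at 247 and 238 CPM in the controls and 260.3 and 255 CPM with caffeine (log2 fold change 0.09 ± 0.11, adjusted p = 0.675). ADM, which encodes adrenomedullin, was not called (log2 fold change 0.13 ± 0.2, adjusted p = 0.712). The targets did not all move together, as 14 of 22 rose, 2 fell and 6 were not called.

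Genes of mitosis rose while several genes of DNA replication fell. Of 32 mitosis genes, 26 rose and 0 fell (median 0.67), and 13 calls held under every alternative; the count was 15 without control replicate 1, 16 without control replicate 2. CDC25C, the phosphatase that starts mitosis, stood at 8.7 and 8.67 CPM in the controls and 23.9 and 20.2 CPM with caffeine (log2 fold change 1.34 ± 0.15, adjusted p = 1.61e-05). ANLN, a scaffold of the cleavage furrow, stood at 76.9 and 82.3 CPM in the controls and 159 and 176 CPM with caffeine (log2 fold change 1.07 ± 0.12, adjusted p = 1.79e-05). The spindle checkpoint kinase BUB1 stood at 44.9 and 48.3 CPM in the controls and 85.5 and 93.6 CPM with caffeine (log2 fold change 0.94 ± 0.12, adjusted p = 6.36e-05). CDC20, which activates the anaphase-promoting complex, stood at 89.8 and 84.4 CPM in the controls and 171 and 166 CPM with caffeine (log2 fold change 0.95 ± 0.13, adjusted p = 0.000102). AURKA, a centrosome kinase, stood at 49.9 and 51.9 CPM in the controls and 82.3 and 81.1 CPM with caffeine (log2 fold change 0.68 ± 0.12, adjusted p = 0.000988). KIF20A, HMMR, TPX2, KIF2C, UBE2C, NEK2, TTK and CENPE rose by 0.74 to 0.97 log2 and lost no call. CCNB1, the mitotic cyclin, rose by 0.56 and its kinase CDK1 by 0.42, and these calls were lost without control replicate 1 or control replicate 2 (adjusted p = 0.0615 to 0.0843) and without any 1 of the 4 SW620 libraries (adjusted p = 0.0622 to 0.246). In bulk RNA, more cells in mitosis and more of these transcripts per cell cannot be told apart. FOXM1 and MYBL2, the transcription factors of this programme, were not called (0.3 and 0.02 log2).

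In the DNA replication list of 36 genes, 7 fell and 2 rose (median -0.28, or -0.16 without SW620 caffeine replicate 1), and 1 of these calls held under every alternative. That was PCNA, the sliding clamp of DNA polymerases, at 316 and 334 CPM in the controls and 186 and 168 CPM with caffeine (log2 fold change -0.88 ± 0.13, adjusted p = 0.000207). E2F1, a factor that turns on S-phase genes, fell by 0.72 on the log2 scale (adjusted p = 0.00516) and lost its call without control replicate 1 (adjusted p = 0.0519). The fork and nucleotide genes MCM6, GINS2, GINS3, FEN1 and DUT fell by 0.46 to 0.64, and TK1 and RRM2 rose by 0.65 and 0.52. TK1 lost its call without control replicate 1 or control replicate 2 (adjusted p = 0.0679 to 0.0874) and RRM2 without caffeine replicate 1, control replicate 1 or control replicate 2 (adjusted p = 0.0524 to 0.142). The number of falls was 2 without control replicate 1 or control replicate 2, 4 without caffeine replicate 2. Of 22 checkpoint and repair genes, including the caffeine-sensitive kinases ATM (-0.17 log2) and ATR (-0.14), 2 fell, CLSPN and RPA2, and none rose. That came to 9.09% called, beside 14.4% of all genes tested. CLSPN lost its call without any 1 of the 4 SW620 libraries (adjusted p = 0.099 to 0.186) and RPA2 without any 1 of the 4 SW620 libraries (adjusted p = 0.137 to 0.233). Of 20 p53 targets, 2 rose and 1 fell (15% called, beside 14.4% of all genes tested). CDKN1A, the p21 inhibitor of cyclin-dependent kinases, stood at 4 and 5.06 CPM in the controls and 8.22 and 6.69 CPM with caffeine (log2 fold change 0.71 ± 0.18, adjusted p = 0.0152), a call lost without caffeine replicate 1 or control replicate 1 (adjusted p = 0.125 to 0.204), and BBC3, the death factor PUMA, rose by 0.69, lost without control replicate 2 (adjusted p = 0.0576).

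Replication-dependent histone genes had the highest median of any list. Of 59 members 30 passed the filter on low counts, and of those 19 rose and none fell (median 1.59), with 10 calls held under every alternative. H2BC11 stood at 2.99 and 3.66 CPM in the controls and 32.9 and 33.1 CPM with caffeine (log2 fold change 3.31 ± 0.2, adjusted p = 2.99e-08). H2BC4 stood at 1.06 and 1.65 CPM in the controls and 12.2 and 9.66 CPM with caffeine (log2 fold change 3.0 ± 0.31, adjusted p = 7.88e-06). H1-2, a linker histone, stood at 69.5 and 80 CPM in the controls and 469 and 339 CPM with caffeine (log2 fold change 2.43 ± 0.19, adjusted p = 4.83e-07). H2AC6 stood at 42.3 and 46.7 CPM in the controls and 174 and 165 CPM with caffeine (log2 fold change 1.93 ± 0.14, adjusted p = 1.8e-07). H2BC12, H2BC21 and H2BC5 rose by 1.81, 1.63 and 1.36 log2, and the H3 gene H3C10 by 1.2. Counts of rises were 11 without control replicate 1, 12 without control replicate 2. Members could pass the filter through the caffeine libraries, in which they are high, so this count is a description. These mRNAs normally end in a stem-loop without a poly-A tail, so poly-A libraries hold only their adenylated part, and many members are near-identical copies between which the counting can split or drop reads. In SW480, where 3.6% of all genes tested were called, 5 of the 30 rose (median 0.46). The difference between the lines, called for 6.71% of all genes, was called for 7, all larger in SW620.

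Of 5 EGF receptor ligands tested 3 rose, and no receptor was called. Beside EREG, AREG, which encodes amphiregulin, stood at 8.55 and 8.57 CPM in the controls and 47.5 and 38.4 CPM with caffeine (log2 fold change 2.32 ± 0.18, adjusted p = 3.7e-07), and HBEGF rose by 0.78 and lost its call without control replicate 2 (adjusted p = 0.0566). The 3 receptors tested had a median of -0.19 log2 with none called. Downstream, 8 of 23 ERK output genes rose and none fell (median 0.27). DUSP5, a phosphatase that shuts off nuclear ERK, stood at 32.4 and 32.7 CPM in the controls and 112 and 94.7 CPM with caffeine (log2 fold change 1.67 ± 0.13, adjusted p = 4.83e-07). MAFF, a small basic leucine zipper factor, stood at 17.1 and 16.7 CPM in the controls and 40.2 and 33.6 CPM with caffeine (log2 fold change 1.13 ± 0.14, adjusted p = 6.08e-05). The ephrin receptor EPHA2 stood at 181 and 166 CPM in the controls and 285 and 308 CPM with caffeine (log2 fold change 0.77 ± 0.11, adjusted p = 0.000281). The survival factor IER3 stood at 252 and 253 CPM in the controls and 455 and 383 CPM with caffeine (log2 fold change 0.73 ± 0.12, adjusted p = 0.000795). The count of rises was 4 without control replicate 1 or control replicate 2, 5 without caffeine replicate 1.

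Of 24 immediate early and CREB-induced genes, 7 rose and none fell (median 0.07, or 0.11 without SW620 caffeine replicate 1), and 3 of these calls held under every alternative. PER1, a clock gene that cyclic AMP and stress also induce, stood at 9.51 and 10.5 CPM in the controls and 30.2 and 26.7 CPM with caffeine (log2 fold change 1.5 ± 0.15, adjusted p = 4.67e-06). KLF6 stood at 112 and 121 CPM in the controls and 229 and 256 CPM with caffeine (log2 fold change 1.06 ± 0.12, adjusted p = 2.05e-05). The orphan receptor NR4A1 stood at 78.6 and 88 CPM in the controls and 157 and 201 CPM with caffeine (log2 fold change 1.1 ± 0.15, adjusted p = 0.00013). FOS was called at 0.34 log2 and lost its call without any 1 of the 4 SW620 libraries (adjusted p = 0.145 to 0.334), and the count was 3 without caffeine replicate 2 or control replicate 1 or control replicate 2. In the clock list of 18, 5 rose and 2 fell, with rises numbering 3 without control replicate 1 or control replicate 2. BHLHE40, a repressor in the clock that hypoxia also induces, stood at 61.9 and 65.1 CPM in the controls and 196 and 188 CPM with caffeine (log2 fold change 1.6 ± 0.12, adjusted p = 2.72e-07). RORA, an activator of BMAL1, stood at 5.06 and 4.46 CPM in the controls and 10.3 and 12.6 CPM with caffeine (log2 fold change 1.27 ± 0.2, adjusted p = 0.000548).

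Genes of the pathways that caffeine is known to touch directly were called in both directions. Of 33 genes of cyclic AMP and adenosine signalling, 4 rose and 3 fell (median -0.16, or -0.05 without SW620 caffeine replicate 1 or control replicate 1 and 0 without control replicate 2). Within this list only AKAP12 and ENTPD1 held their calls under every alternative. Of the 4 adenosine receptors 2 passed the filter. ADORA2B was not called in SW620 at 15.3 and 14.4 CPM in the controls and 20.8 and 19.4 CPM with caffeine (log2 fold change 0.43 ± 0.16, adjusted p = 0.0869), and ADORA1 was at or under 0.119 CPM in every SW620 library. ENTPD1, the ectonucleotidase CD39 that starts the conversion of ATP to adenosine, stood at 15 and 13.6 CPM in the controls and 7.98 and 6.95 CPM with caffeine (log2 fold change -0.94 ± 0.16, adjusted p = 0.00101), and ADA, which removes adenosine, rose by 0.7 and lost its call without caffeine replicate 1 or control replicate 1 (adjusted p = 0.0816 to 0.159). Among 10 phosphodiesterases tested, PDE4D rose (0.54 log2, adjusted p = 0.0314) while PDE3B and PDE7A fell (-0.61 and -0.45), and the 3 calls were lost without caffeine replicate 2, control replicate 1 or control replicate 2 (adjusted p = 0.0946 to 0.387), without caffeine replicate 1, control replicate 1 or control replicate 2 (adjusted p = 0.139 to 0.24) and without any 1 of the 4 SW620 libraries (adjusted p = 0.0678 to 0.31).

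Calcium store genes were called in 5 of 13, with 2 higher and 3 lower, and none of the 5 held its call under every alternative. ITPR1 and ITPR2, release channels opened by inositol trisphosphate, were called in opposite directions. ITPR1 stood at 5.21 and 5.16 CPM in the controls and 8.69 and 10.4 CPM with caffeine (log2 fold change 0.88 ± 0.2, adjusted p = 0.00701), and ITPR2 at 68 and 68.4 CPM in the controls and 31.3 and 42.9 CPM with caffeine (log2 fold change -0.88 ± 0.19, adjusted p = 0.00573). ITPR1 lost its call without caffeine replicate 2, control replicate 1 or control replicate 2 (adjusted p = 0.0593 to 0.0862), and ITPR2 without caffeine replicate 1 (adjusted p = 0.0779). RYR2, a ryanodine receptor of the kind that caffeine opens, stood at 2.28 and 2.36 CPM in the controls and 0.655 and 1.51 CPM with caffeine (adjusted p = 0.0458), a call lost without caffeine replicate 1, control replicate 1 or control replicate 2 (adjusted p = 0.166 to 0.336). Of 7 xenobiotic response genes 1 rose and none fell (14.3% called, beside 14.4% of all genes tested). It was ARNT, the partner of the aryl hydrocarbon receptor and of hypoxia-inducible factors (log2 fold change 0.51 ± 0.14, adjusted p = 0.0229), and it lost its call without caffeine replicate 2, control replicate 1 or control replicate 2 (adjusted p = 0.126 to 0.225). CYP1A1, a target of that receptor, stood at 1.47 and 0.902 CPM in the controls and 0.774 and 0.805 CPM with caffeine and was not called (log2 fold change -0.58 ± 0.36, adjusted p = 0.317). TIPARP, another target, was not called either (log2 fold change 0.27 ± 0.13, adjusted p = 0.185).

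Inflammatory genes rose more often than they fell, and interferon-stimulated genes moved both ways. Of 23 NF-kB and inflammatory genes, 10 rose and 1 fell (median 0.47), and 7 rises held under every alternative. CXCL8, the neutrophil chemokine IL-8, stood at 56.9 and 64.2 CPM in the controls and 178 and 165 CPM with caffeine (log2 fold change 1.5 ± 0.15, adjusted p = 4.49e-06). CCL20 stood at 2.99 and 3.31 CPM in the controls and 10.7 and 11.8 CPM with caffeine (log2 fold change 1.83 ± 0.24, adjusted p = 8.07e-05). IL32 stood at 3.39 and 3.11 CPM in the controls and 11.7 and 8.61 CPM with caffeine (log2 fold change 1.64 ± 0.23, adjusted p = 0.000145). NFKB2, the precursor of the p52 subunit, stood at 42.8 and 41.1 CPM in the controls and 117 and 111 CPM with caffeine (log2 fold change 1.44 ± 0.14, adjusted p = 3.01e-06). BIRC3, an apoptosis inhibitor and NF-kB target, stood at 7.14 and 8.52 CPM in the controls and 15.4 and 18.6 CPM with caffeine (log2 fold change 1.12 ± 0.2, adjusted p = 0.00115). The cytokine LIF stood at 65.8 and 66.5 CPM in the controls and 134 and 132 CPM with caffeine (log2 fold change 1.01 ± 0.12, adjusted p = 2.51e-05). ICAM1 was the member that fell (-0.71 log2), and it lost its call without any 1 of the 4 SW620 libraries (adjusted p = 0.155 to 0.282).

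Among the immunoproteasome genes that the study is named for, PSMB9 fell, from 7.44 and 8.02 CPM to 3.27 and 3.57 CPM (log2 fold change -1.17 ± 0.18, adjusted p = 0.000456). PSMB8 stood at 36 and 33.3 CPM in the controls and 24.1 and 26.1 CPM with caffeine and was not called (log2 fold change -0.47 ± 0.16, adjusted p = 0.0666); its reads can come from the gene and from the fusion transgene, which the counts do not separate. PSMB10 was not called (log2 fold change -0.24 ± 0.22, adjusted p = 0.509), and neither were the standard catalytic subunits PSMB5 (-0.23 log2), PSMB6 (-0.03) and PSMB7 (0.07), of which PSMB6 turned positive without caffeine replicate 2 or control replicate 2, and PSMB7 negative without caffeine replicate 1. The MHC class I heavy chain gene HLA-B stood at 193 and 186 CPM in the controls and 109 and 94.1 CPM with caffeine (log2 fold change -0.9 ± 0.13, adjusted p = 0.000149), while B2M, its light chain, fell by 0.47 on the log2 scale and lost its call without caffeine replicate 2, control replicate 1 or control replicate 2 (adjusted p = 0.0991 to 0.241). In all, 4 of 29 genes of immunoproteasome and MHC class I fell and none rose (13.8% called, beside 14.4% of all genes tested). The falls numbered 2 without caffeine replicate 2 or control replicate 1 or control replicate 2. The 32 interferon-stimulated genes gave 4 rises and 4 falls, and 2 rises and 1 fall held under every alternative. IRF7 (1.27 log2) and ISG20 (1.23) rose, and BST2, the tetherin that holds budding virus, fell from 13.1 and 12.7 CPM to 5.95 and 5.54 CPM (log2 fold change -1.17 ± 0.16, adjusted p = 0.000146). IFITM3 fell by 1.26 and lost its call without caffeine replicate 2 (adjusted p = 0.0591).

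Ligands seen by natural killer cells did not move together, since RAET1L rose and ULBP1 fell from 23.2 and 20.6 CPM to 13.2 and 14.7 CPM (log2 fold change -0.65 ± 0.17, adjusted p = 0.0188), a call lost without any 1 of the 4 SW620 libraries (adjusted p = 0.0641 to 0.19). In the death receptor and apoptosis list 4 of 28 genes rose and 1 fell (17.9% called, beside 14.4% of all genes tested). Of these calls, 2 rises held under every alternative. CASP9, the caspase of the mitochondrial death pathway, stood at 13.7 and 13.2 CPM in the controls and 22.9 and 22.8 CPM with caffeine (log2 fold change 0.76 ± 0.14, adjusted p = 0.00182), and BCL2L1, the survival factor BCL-XL, rose by 0.61 and lost its call without control replicate 2 (adjusted p = 0.0513).

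Genes of the amino acid response, which the factor ATF4 drives when amino acids run short, fell more often than they rose. Of 39, 10 fell and 3 rose (median -0.14, or 0.02 without SW620 caffeine replicate 1). Beside NUPR1, CHAC1, a glutathione-degrading enzyme, stood at 100.1 and 105 CPM in the controls and 55.1 and 64.4 CPM with caffeine (log2 fold change -0.78 ± 0.14, adjusted p = 0.00138). The serine synthesis genes PHGDH (-0.53 log2), PSAT1 (-0.48) and PSPH (-0.42) fell and lost their calls without any 1 of the 4 SW620 libraries (adjusted p = 0.0668 to 0.155), without caffeine replicate 1, control replicate 1 or control replicate 2 (adjusted p = 0.0727 to 0.183) and without any 1 of the 4 SW620 libraries (adjusted p = 0.0862 to 0.26). SLC7A5, the large neutral amino acid transporter, went from 1188 and 1098 CPM to 692 and 843 CPM (log2 fold change -0.58 ± 0.13, adjusted p = 0.00827) and lost its call without caffeine replicate 1, control replicate 1 or control replicate 2 (adjusted p = 0.0639 to 0.142). PPP1R15A, which restarts translation, rose (log2 fold change 1.03 ± 0.13, adjusted p = 8.02e-05), while ATF4 itself was not called (log2 fold change -0.24 ± 0.13, adjusted p = 0.231). The number of falls was 2 without control replicate 1, 3 without caffeine replicate 1 or control replicate 2.

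Genes of the unfolded protein response rose where they were called, and the few heat shock genes that were called fell. Of 20 genes of the unfolded protein response 8 rose and none fell (median 0.35). HSPA5, the chaperone BiP, stood at 545 and 535 CPM in the controls and 1014 and 987 CPM with caffeine (log2 fold change 0.89 ± 0.12, adjusted p = 0.000153) and was the 1 member whose call held under every alternative. HYOU1, PDIA4, DNAJC3, SEL1L, HSP90B1, HERPUD1 and ERN1 rose by 0.41 to 0.63 log2. The number of rises was 1 without control replicate 1 or control replicate 2, 3 without caffeine replicate 2. Of 14 heat shock genes 4 fell and none rose, and 1 fall held under every alternative. With the SW620 libraries fitted alone, 5 were called lower and 2 higher. DNAJA1, a partner of HSP70, stood at 187 and 192 CPM in the controls and 126 and 114 CPM with caffeine (log2 fold change -0.66 ± 0.12, adjusted p = 0.00118), and HSPA1B, which has a near-identical copy in HSPA1A, fell by 0.89 on the log2 scale and lost its call without control replicate 1 (adjusted p = 0.0852). Of 19 NRF2 targets 3 rose and 1 fell, and OSGIN1, an oxidative stress growth inhibitor, at 5.41 and 6.62 CPM in the controls and 13.5 and 11.5 CPM with caffeine (log2 fold change 1.05 ± 0.2, adjusted p = 0.00217), was the 1 that kept its call throughout.

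Wnt targets and stem cell genes fell more often than they rose. Of 25 genes, 9 fell and 1 rose (median -0.33, or -0.15 without SW620 caffeine replicate 1), with 5 falls that held under every alternative. LGR5, the marker of intestinal stem cells, stood at 116 and 114 CPM in the controls and 42.7 and 52.3 CPM with caffeine (log2 fold change -1.27 ± 0.13, adjusted p = 8.91e-06). ASCL2, a factor that keeps these cells, stood at 145 and 136 CPM in the controls and 69.2 and 68.2 CPM with caffeine (log2 fold change -1.04 ± 0.17, adjusted p = 0.000538). APCDD1, a Wnt inhibitor, stood at 69.7 and 69.2 CPM in the controls and 26 and 23.5 CPM with caffeine (log2 fold change -1.49 ± 0.13, adjusted p = 1.94e-06). PROM1, the membrane protein CD133, stood at 1.92 and 3.16 CPM in the controls and 0.417 and 0.403 CPM with caffeine (log2 fold change -2.62 ± 0.44, adjusted p = 0.00085). SMOC2, a matrix protein of the stem cell zone, stood at 115 and 117 CPM in the controls and 65.7 and 69.3 CPM with caffeine (log2 fold change -0.78 ± 0.14, adjusted p = 0.001). DKK1, a secreted Wnt inhibitor, was the gene that rose (1.33 log2), and it lost its call without any 1 of the 4 SW620 libraries (adjusted p = 0.052 to 0.171). The number of falls was 5 without control replicate 1 or control replicate 2. MYC, a Wnt target in these tumours, was not called at 782 and 793 CPM in the controls and 754 and 852 CPM with caffeine (log2 fold change 0.03 ± 0.13, adjusted p = 0.928).

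In the Notch list of 15 genes, JAG1, a ligand, rose from 35 and 32.6 CPM to 90.4 and 100.5 CPM (log2 fold change 1.5 ± 0.14, adjusted p = 2.49e-06) and HES6 fell (log2 fold change -0.98 ± 0.19, adjusted p = 0.00216). Intestinal differentiation genes gave 1 rise and 3 falls of 16, of which 1 and 2 held under every alternative. CDX2, the transcription factor that sets intestinal identity, stood at 134 and 128 CPM in the controls and 80 and 87.9 CPM with caffeine (log2 fold change -0.65 ± 0.12, adjusted p = 0.00127). Its target CDH17, a cadherin of the gut, stood at 42.4 and 46 CPM in the controls and 20.7 and 23.6 CPM with caffeine (log2 fold change -1.0 ± 0.15, adjusted p = 0.000234). KRT20, a keratin of mature colon cells, rose from 0.607 and 0.601 CPM to 2.68 and 2.11 CPM (log2 fold change 1.97 ± 0.39, adjusted p = 0.00304), and DESeq2's Wald test gave it no adjusted p.

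Genes of the epithelial surface and cytoskeleton rose in several lists. Of 12 keratins 8 rose and none fell (median 0.9), and 6 of those calls held under every alternative that gave a value, KRT20 among them. KRT19 stood at 775 and 760.1 CPM in the controls and 1748 and 1436 CPM with caffeine (log2 fold change 1.05 ± 0.16, adjusted p = 0.000259). KRT7 stood at 22 and 19.1 CPM in the controls and 40.4 and 33.9 CPM with caffeine (log2 fold change 0.85 ± 0.15, adjusted p = 0.00101). KRT80 stood at 151 and 140.1 CPM in the controls and 272 and 291 CPM with caffeine (log2 fold change 0.95 ± 0.12, adjusted p = 5.38e-05). KRT8 and KRT18, the abundant pair of simple epithelia, were not called (0.33 and 0.27 log2). Of 13 integrins 6 rose, with ITGA5, the fibronectin receptor subunit, at 70.2 and 64.3 CPM in the controls and 191 and 176 CPM with caffeine (log2 fold change 1.45 ± 0.12, adjusted p = 9.85e-07). ITGB4, the subunit of hemidesmosomes, stood at 486 and 465 CPM in the controls and 912 and 974 CPM with caffeine (log2 fold change 0.99 ± 0.12, adjusted p = 3.82e-05). The number of integrins higher was 3 without control replicate 2. In the adhesion list of 21, 6 rose and none fell, and CDH1, which encodes E-cadherin, stood at 192 and 199 CPM in the controls and 368 and 396 CPM with caffeine (log2 fold change 0.97 ± 0.13, adjusted p = 8.15e-05). JUP, plakoglobin, stood at 168 and 164 CPM in the controls and 289 and 305 CPM with caffeine (log2 fold change 0.83 ± 0.11, adjusted p = 9.62e-05). Its number of rises was 2 without caffeine replicate 2 or control replicate 2, 3 without control replicate 1.

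Of 13 genes of the mesenchymal state 3 rose and 1 fell, and these calls held under every alternative. The median was 0.11, or -0.08 without SW620 caffeine replicate 1, -0.01 without caffeine replicate 2 and -0.02 without control replicate 1. VIM, vimentin, stood at 343 and 347 CPM in the controls and 992 and 864 CPM with caffeine (log2 fold change 1.43 ± 0.15, adjusted p = 9.41e-06). FN1, fibronectin, stood at 21.8 and 23.1 CPM in the controls and 51.6 and 57.9 CPM with caffeine (log2 fold change 1.29 ± 0.15, adjusted p = 2.48e-05). CTHRC1, a secreted collagen-associated protein, fell from 3.59 and 3.91 CPM to 1.01 and 0.805 CPM (log2 fold change -2.05 ± 0.31, adjusted p = 0.000286), and the 3 transcription factors of that list that were tested were not called. Fibroblast markers summed to 37.8 to 40.2 CPM in the controls and 45.9 to 48.6 CPM with caffeine, with COL3A1 and POSTN at 0, and endothelial markers to 9.72 to 9.82 and 15.5 to 16.1 CPM, with KDR and EMCN at 0. The part of such cells in these values was not tested.

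Matrix genes rose more often than they fell, 13 against 3 of 29 (median 0.4), with 8 rises and 2 falls held under every alternative. LAMA3, a chain of an epithelial laminin, stood at 30.6 and 28.7 CPM in the controls and 72.6 and 77.4 CPM with caffeine (log2 fold change 1.34 ± 0.16, adjusted p = 3.32e-05). PLAU, urokinase, stood at 4.1 and 4.06 CPM in the controls and 11.3 and 9.06 CPM with caffeine (log2 fold change 1.31 ± 0.2, adjusted p = 0.000395). Its receptor PLAUR stood at 9.11 and 9.67 CPM in the controls and 23.2 and 16.5 CPM with caffeine (log2 fold change 1.07 ± 0.19, adjusted p = 0.000983). The proteoglycan SDC4 stood at 72 and 66 CPM in the controls and 154 and 154 CPM with caffeine (log2 fold change 1.16 ± 0.13, adjusted p = 1.32e-05). MMP15 and the basement membrane collagen COL4A2 fell (-1.24 and -0.84 log2). The number of rises was 8 without control replicate 1 or control replicate 2. COL13A1 had no reads in either control and 4 in each caffeine library, a call lost without any 1 of the 4 SW620 libraries. It was 2.89-fold higher against a floor of 3 counts over the control group. That value takes the caffeine reads as exact, so it is no lower limit. Of 18 YAP and TEAD targets and factors 6 rose and 2 fell, with 2 rises and 1 fall held under every alternative. AXL, a receptor tyrosine kinase, stood at 2.83 and 3.06 CPM in the controls and 9.05 and 7.25 CPM with caffeine (log2 fold change 1.46 ± 0.19, adjusted p = 8.22e-05). CCN1, a matricellular protein and standard YAP target, went down. It stood at 19.2 and 20.3 CPM in the controls and 10.1 and 9.31 CPM with caffeine (log2 fold change -1.03 ± 0.14, adjusted p = 0.000113).

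Lipid genes gave no common direction. The 28 cholesterol genes gave 3 rises and 2 falls, of which 2 and 1 held under every alternative (17.9% called, beside 14.4% of all genes tested). Of 23 fatty acid and storage genes, 5 rose and 3 fell, of which 3 and 1 held under every alternative. PLIN2, a coat protein of lipid droplets, rose from 99.4 and 106 CPM to 224 and 186 CPM (log2 fold change 0.99 ± 0.13, adjusted p = 8.22e-05). PLIN3, another coat protein, rose from 45.3 and 49 CPM to 95.8 and 96 CPM (log2 fold change 1.02 ± 0.13, adjusted p = 6.5e-05). HILPDA, a lipase inhibitor induced by hypoxia, rose by 0.98 log2, while G0S2, another inhibitor of the same lipase, fell (log2 fold change -1.33 ± 0.15, adjusted p = 1.87e-05). Autophagy and lysosome genes gave 3 rises and 3 falls of 31, none of them held under every alternative (19.4% called, beside 14.4% of all genes tested).

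Mitochondrial energy genes showed no calls. None of 36 nuclear genes of oxidative phosphorylation was called (median -0.05), and none of 13 mitochondrially encoded mRNAs (median -0.35), with 4 of the former and 0 of the latter at an unadjusted p under 0.05, beside 4938 of the 17671 genes tested. The first median ran from -0.14 to 0.03 when a library was left out, lowest without SW620 caffeine replicate 1 and highest without SW620 caffeine replicate 2. DESeq2's Wald test called none of either list. Fitted on the SW620 libraries alone, 3 of the former were called higher and 3 lower, and 8 of the latter were called lower. Of the former 1 was called higher without SW480 control replicate 1 or 2, and 6 of the latter were called lower without SW480 caffeine replicate 1 or 2. The mitochondrial share of reads in these libraries was 4.86% and 1.63%, a spread that enters the fit of all 8 libraries. Cytosolic ribosomal protein genes, whose transcripts are short, had 2 falls of 40, RPS23 (log2 fold change -0.73 ± 0.13, adjusted p = 0.00108) and RPL22, which lost its call without caffeine replicate 2, control replicate 1 or control replicate 2 (adjusted p = 0.0553 to 0.076), and a median of -0.27. That median ran from -0.38 to -0.13 when a library was left out, beside the length trend between the caffeine replicates given above, whose part in it was not tested.

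**Figure D4:**
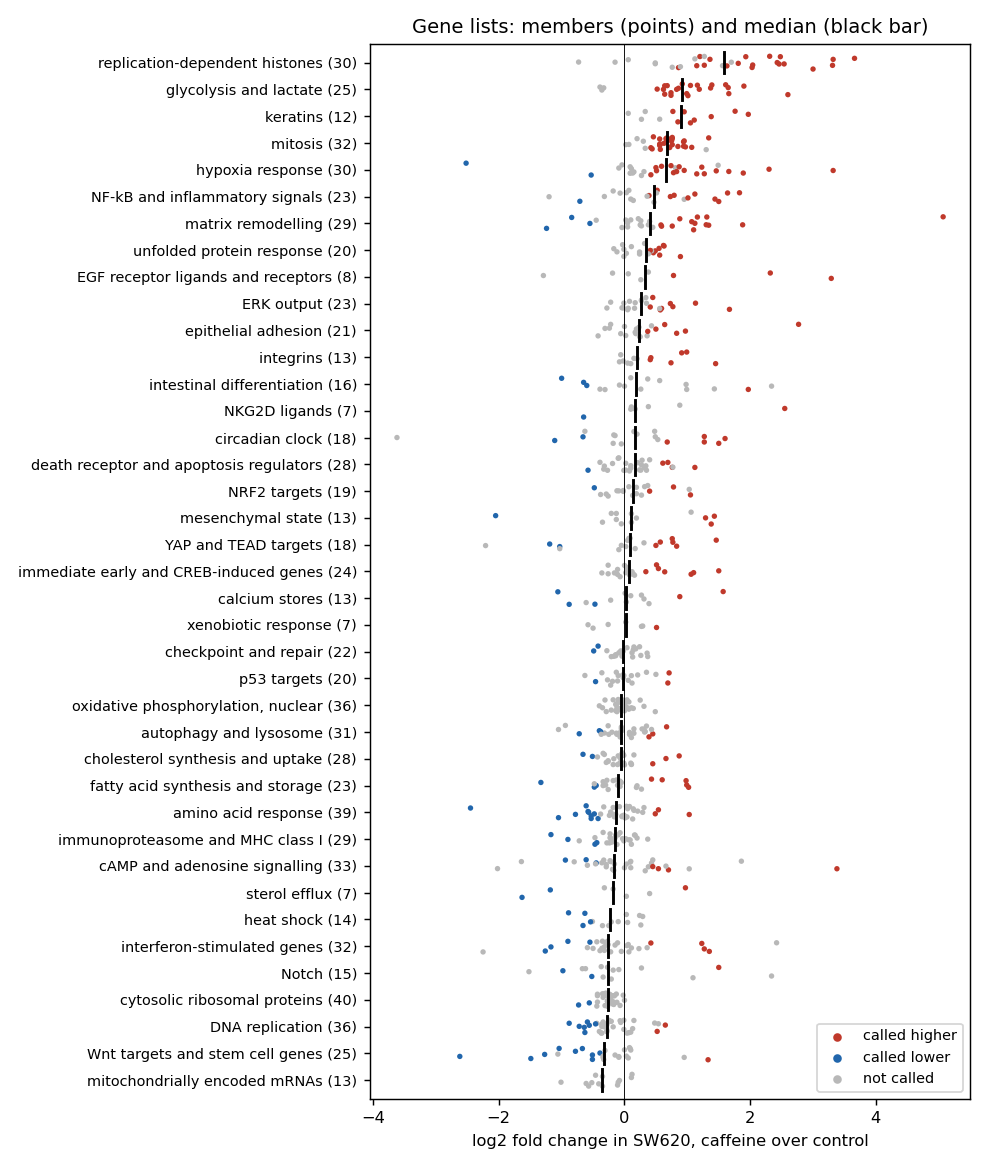
Log2 fold change in SW620 (x axis, caffeine over control) of each tested member of 39 gene lists (rows, number tested in parentheses), ordered by the list's median (black bar), with called members in red or blue and the others in grey; vertical scatter within a row has no meaning. Histones (1.59), glycolysis (0.92) and keratins (0.9) lie at the top, and Wnt targets (-0.33) and mitochondrially encoded mRNAs (-0.35) at the bottom.

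SW480 cells with and without caffeine gave 636 calls of 17671 (3.6%). Leaving out a caffeine library of that line gave 1141 calls (replicate 1) or 56 (replicate 2), and leaving out a control gave 210 (replicate 1) or 1421 (replicate 2). On all 8 libraries, the difference of the caffeine effects (SW620 minus SW480) was called for 1185 genes (6.71%). Of the 2537 genes called in SW620, 850 (33.5%) had a called difference, and in 798 of these the SW620 effect was the larger in size. Genes picked for a call in SW620 tend to show the larger effect there, so the 798 is only a description. Both lines called 166 genes, 6.54% of those in SW620 and 26.1% of those in SW480. Of these, 102 had the same direction and 64 the opposite one. The differences called numbered 839 without SW620 caffeine replicate 1, 612 without SW620 caffeine replicate 2, 489 without SW620 control replicate 1 and 451 without SW620 control replicate 2, and 696 without SW480 caffeine replicate 2 against 2188 without SW480 control replicate 2.

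The largest risers of SW620 were also among the largest differences. The difference contains the SW620 effect itself, so this overlap is only a description. LBH had a log2 fold change of 0.14 in SW480, and the difference was 4.24 ± 0.23, adjusted p = 2.01e-08. EMP1 had -0.54 in SW480 (difference 3.93 ± 0.26, adjusted p = 1.56e-07), NDRG1 -0.24 (difference 3.56 ± 0.21, adjusted p = 2.77e-08), AKAP12 -0.17 (difference 3.55 ± 0.2, adjusted p = 2.01e-08) and PTPRH -0.26 (difference 3.16 ± 0.32, adjusted p = 2.24e-05). By list, the difference was called for 16 of 25 glycolysis genes, for 12 higher and 2 lower of 30 hypoxia genes and for 8 of 32 mitosis genes. For SLC2A3 the difference was 2.78 ± 0.19, adjusted p = 1.79e-07, for PGK1 1.37 ± 0.18, adjusted p = 0.000183 and for LDHA 1.1 ± 0.19, adjusted p = 0.0021, each a larger rise in SW620.

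Genes of the amino acid response differed between the lines more in 1 direction than in the other. In SW480 15 of 39 genes rose and 1 fell, and the difference was called lower in SW620 for 15 and higher for 1. CHAC1 fell in SW620 (-0.78 log2) and had 1.38 in SW480 (difference -2.16 ± 0.22, adjusted p = 2.27e-05). CPLX2, a synaptic vesicle protein, stood at 13.5 and 12.6 CPM in the controls and 6.43 and 7.65 CPM with caffeine in SW620 (log2 fold change -0.88 ± 0.16) and had 1.74 in SW480, with a difference of -2.63 ± 0.22, adjusted p = 4.15e-06. The trypsinogen gene PRSS2 fell in SW620 (-0.99 log2) and had 1.61 in SW480 (difference -2.6 ± 0.6, adjusted p = 0.0148), a difference not called once SW480 caffeine replicate 1 was left out (adjusted p = 0.0906). Among Wnt targets, LGR5 had -0.3 in SW480 (difference -0.97 ± 0.22, adjusted p = 0.0127) and APCDD1 -0.18 (difference -1.31 ± 0.18, adjusted p = 0.000355), each a larger fall in SW620.

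**Figure D5:**
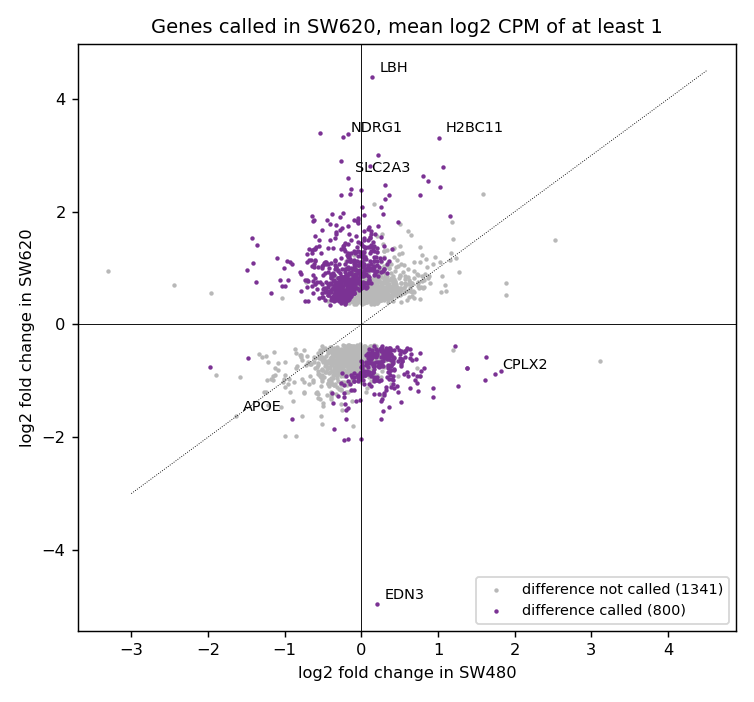
Log2 fold change with caffeine in SW480 (x axis) and in SW620 (y axis) of the 2141 genes called in SW620 that averaged 1 or more in log2 CPM over the 8 libraries, with the 800 whose difference between the lines was called in purple and the other 1341 in grey; the dotted line marks equal effects. LBH and NDRG1 lie high on the y axis and near 0 on the x axis, and EDN3 at the bottom has 0 reads in the caffeine-treated SW620 libraries, so its position is not a measured size.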

How the data were processed

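Poly-A RNA of SW620 and SW480 cells, treated with caffeine or as controls, was sequenced in 8 libraries, 2 per group. Per the labels' protocols the kit was directional and reads were single-end. The authors deposited 1 table of raw counts per library, that is reads per Ensembl gene, made with Trim Galore (no version given), STAR 2.7.3a and featureCounts 2.0.5 on hg38, per the submitters' processing notes. The annotation release and the strand setting are not given in the sources used here, so reads of a gene and of an antisense partner may not be told apart. Each table held 62649 genes and 12 rows of totals, which were left out.

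Counts were fitted with edgeR 4.0.16 in R 4.3.3 (TMM scaling, filterByExpr, robust quasi-likelihood fit, F test, Benjamini-Hochberg adjustment over all 17671 genes kept, threshold 0.05) in 1 fit of all 8 libraries with a mean per group, because 2 libraries per group leave little to estimate the spread from. The coefficient of biological variation was 10.5%. Contrasts were caffeine against control in SW620, in SW480, and their difference. Levels are CPM after TMM scaling, and standard errors were taken from the log2 fold change and its F value. Leaving out 1 library leaves a group with 1 sample, which is then assumed to vary like the others. With no read seen, up to 3 are allowed at 95%, a limit for counting error only. On simulated counts for 17263 genes, the fit recovered 89% of 100 genes changed by 1 and 98% of 100 changed by 2 on the log2 scale, with 9 false calls. Far fewer genes changed there than the 2537 called in the data, so these rates describe the simulated setting only.

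Genes named included the 15 largest rises and falls in log2 fold change and the 10 largest in CPM. These were picked among called genes whose caffeine and control libraries did not overlap. Also named were the 5 largest differences between the lines in each direction and up to 6 members of each of 43 lists by adjusted p. The catalytic proteasome subunits and the adenosine receptors were named too. Other list members and the reference genes HIF1A, VEGFA, ADM, MYC and ATF4 were named after their values were seen. The members and lists were chosen with earlier results of these data known. GENCODE 29 held 888 of the 893 named and list genes. Of these, 150 overlapped exons of another gene on their own strand and 335 on the opposite one. The alternatives were DESeq2 1.42.0 size factors in the edgeR fit, DESeq2's Wald test, no filter on low counts, the replicate number as a block, the SW620 libraries alone, and each of the 8 libraries left out. Results of some genes are not reported here.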

Additional observations from a re-analysis of the deposited data

Results flagged for a closer look

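The caffeine effect differed between SW620 and SW480 for 1185 genes by the test of the difference itself (edgeR, adjusted p under 0.05, 6.71% of genes tested). The 5 largest differences toward SW620 were LBH (4.24 on the log2 scale), EMP1 (3.93), NDRG1 (3.56), AKAP12 (3.55) and PTPRH (3.16), and none of them lost its call under any alternative run.

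The 5 largest differences toward SW480 were EDN3, TFF3, CA6, CPLX2 and PRSS2. EDN3, an endothelin gene, had 5 and 3 reads in the SW620 controls and 0 with caffeine. It was 2.46-fold lower against a floor of 3 counts over the caffeine group. That value takes the control reads as exact, so it is no lower limit. The fitted difference of -5.16 is no measured size. TFF3, a trefoil peptide of goblet cells, was not called in SW620 at 180.2 and 184 CPM in the controls and 187 and 158 CPM with caffeine and had a log2 fold change of 2.96 in SW480 (difference -3.04, adjusted p = 0.0290), a call that depended on several libraries. The adjusted p was 0.258 with SW480 caffeine replicate 2 left out, 0.110 with SW480 control replicate 2, 0.0510 with SW620 caffeine replicate 2 and 0.0537 with SW620 control replicate 2 left out. CA6, a secreted carbonic anhydrase, fell in SW620 from 40.4 and 44.1 CPM to 24.5 and 23 CPM (difference -2.65, adjusted p = 0.0351), and its adjusted p ran from 0.0210 to 0.417 over the alternatives, the highest with SW480 caffeine replicate 2 left out. CPLX2 had a difference of -2.63, called under every alternative run, and PRSS2 one of -2.60, not called once SW480 caffeine replicate 1 was left out (adjusted p = 0.0906). EDN3 was not called with SW620 caffeine replicate 1 or 2 or control replicate 1 left out (adjusted p = 0.0978 to 0.150).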

How the results depend on the processing

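The 2537 calls in SW620 became 2516 with DESeq2 size factors, 2633 without a filter on low counts, 2179 with DESeq2's Wald test and 4617 with the SW620 libraries alone (2504 higher and 2113 lower), of which 2512 were called in the fit of all libraries. With the replicate block they were 2249, the differences between the lines 1087 and the SW480 calls 590. Same-numbered SW620 libraries had deviations correlated at 0.00655 over 12465 genes. This value does not settle whether they were paired, since the caffeine replicates also differed along exon length and the controls did not. Leaving out 1 library gave 801 to 3245 calls in SW620 (507 to 1838 higher, 294 to 1439 lower), 451 to 2188 differences and 56 to 1421 calls in SW480, with fewer samples in the fit, and the main counts were 1185 and 636. No filter on low counts gave 1592 differences, under 1.5 times the main count, and 1073 calls in SW480. Of 388 genes run under the alternatives, 153 of the 311 called kept their call under all 13, KRT20 under the 12 that gave it a value, 157 lost it under at least 1, and 45 of 77 not called gained one. Direction reversed in 9 uncalled genes. Without SW620 caffeine replicate 2 these were HIF1A (-0.02 to 0.21 with 1 library left out), MYC (-0.06 to 0.12), TFF3 (-0.20 to 0.04), MYBL2 (-0.05 to 0.10) and PSMB6 (-0.10 to 0.06), the last 2 also without control replicate 2 (-0.03 and 0.01). Without caffeine replicate 1 these were PSMB7 (-0.07 to 0.20) and ATR (-0.35 to 0.05), and without control replicate 1 ADM (-0.05 to 0.37) and HSPA1A (-1.02 to 0.30). The cause was not tested. The median log2 fold change of all genes was -0.02 to 0 in every alternative. With 2 libraries per group and 3 reads at 0.150 CPM or more, small changes and low genes are beyond this depth.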
